A study of Homo sapiens with 6 samples.

Results

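The unfolded protein response and the integrated stress response were followed through 49 listed genes: the stress sensors of the endoplasmic reticulum (ER), the transcription factors they act on, and the enzymes, transporters, chaperones, disulfide isomerases and degradation factors these factors are known to control. The rule takes the listed symbols, mapped from Ensembl identifiers, and applies no threshold to their values. All 49 were found among the 23406 features of the deposited tables, and all 49 were among the 14071 features that passed the filter on low counts. RNA was sequenced from Hep-3B (Hep3B) cells, an epithelial line from a human hepatocellular carcinoma. Control cells (shControl, labelled WT) carried a control hairpin, and knockdown cells (shNXN, labelled NXN knockdown) carried a hairpin against NXN, which encodes nucleoredoxin, a redox-active protein of the thioredoxin family. The hairpins were delivered by lentivirus packaged in 293T cells, and both groups were grown in serum-containing DMEM and selected with puromycin, so that control cells had also been transduced and drug-selected. RNA was collected on days 7, 9 and 11, with 1 library per group and day, so that the 3 days served as the 3 replicates of a group. The labels do not say which hairpin sequence was used or whether the days came from separate transductions, and p-values therefore measure only the spread between these libraries.

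In the ER, unfolded protein is sensed by IRE1 (ERN1), PERK (EIF2AK3) and ATF6. IRE1 splices the XBP1 mRNA, ATF6 is cut to an active transcription factor, and PERK phosphorylates eIF2α, which slows translation and favours synthesis of ATF4. GCN2 (EIF2AK4) reaches the same eIF2α step from amino acid shortage, and this shared arm is called the integrated stress response. Hepatocytes secrete large amounts of albumin and other plasma proteins, and their ER folding capacity is correspondingly high. Splicing of XBP1, cleavage of ATF6 and phosphorylation of PERK or eIF2α are not read by counts per gene.

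Some promoters of these genes carry matches to known elements through which the pathways act. The matches are shown as sequence only, and a match does not place a member in an arm of the response. Sequences were taken from RefSeq (GRCh38.p14), where 46 of the 49 members had a promoter entry, and no entry was used for PSPH, SHMT2 or PDIA3. The window ran from 250 bases before to 50 bases after the annotated start. The elements searched, on both strands, were the ER stress response element ERSE (CCAAT, a spacer of 9 bases and CCACG), ERSE-II (ATTGG, any base and CCACG), the unfolded protein response element UPRE (TGACGTGG) and the amino acid response element CARE (TGATGNAAN). ERSE was found in 8 of 46 member promoters (17.4%) and in 0.0916% of all 27305 promoters. ERSE-II was found in 3 members (6.52%, against 0.0696% of all), UPRE in 2 (4.35%, against 0.927%) and CARE in 7 (15.2%, against 4.45%). The ERSE was originally described in promoters of ER chaperone genes that are themselves members, so its share among them is no independent result. The members were listed as genes of these pathways, so the shares of the other elements are no independent result either. The whole 250 bases before the start are given for HSPA5, which encodes BiP, and for HSP90B1, which encodes GRP94, with ERSE matches in capitals and the strand of the gene shown 5′ to 3′.
HSPA5, chr9:125241344-125241593, minus strand: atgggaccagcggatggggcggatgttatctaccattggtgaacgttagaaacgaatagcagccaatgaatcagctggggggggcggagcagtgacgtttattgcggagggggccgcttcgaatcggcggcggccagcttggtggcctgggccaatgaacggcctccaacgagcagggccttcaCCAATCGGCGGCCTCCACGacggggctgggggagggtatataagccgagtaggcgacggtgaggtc
HSP90B1, chr12:103930160-103930409, plus strand: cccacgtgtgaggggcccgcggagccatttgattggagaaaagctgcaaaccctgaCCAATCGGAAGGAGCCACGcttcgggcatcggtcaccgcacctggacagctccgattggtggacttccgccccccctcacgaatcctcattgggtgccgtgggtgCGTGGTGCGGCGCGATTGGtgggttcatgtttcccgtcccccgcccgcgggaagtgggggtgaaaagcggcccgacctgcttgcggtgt

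HSP90B1 had 1 match on each strand, and the reverse match reads CGTGG first and ATTGG last. For the other ERSE carriers the match is shown with up to 20 bases on each side, to let their spacers be compared.
CALR, chr19:12938364-12938422, plus strand: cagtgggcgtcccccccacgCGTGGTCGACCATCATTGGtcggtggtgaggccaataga
CANX, chr5:179698758-179698816, plus strand: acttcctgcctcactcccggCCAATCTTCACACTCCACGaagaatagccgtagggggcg
CRELD2, chr22:49918534-49918592, plus strand: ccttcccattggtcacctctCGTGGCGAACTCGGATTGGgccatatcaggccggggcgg
PDIA6, chr2:10812833-10812891, minus strand: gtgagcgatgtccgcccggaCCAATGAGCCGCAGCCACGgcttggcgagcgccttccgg
XBP1, chr22:28800583-28800641, minus strand: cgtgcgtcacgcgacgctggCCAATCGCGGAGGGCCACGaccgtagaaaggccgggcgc
ERO1B, chr1:236282163-236282208, minus strand: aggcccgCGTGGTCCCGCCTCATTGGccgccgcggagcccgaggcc

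CANX held a further ERSE match that runs across the start and is not printed. The compact ERSE-II, in which the CCAAT and CCACG parts lie next to each other on opposite strands, was present in 2 copies in HYOU1. The upstream HYOU1 copy overlaps a UPRE match.
HYOU1, ERSE-II, chr11:119057360-119057410, minus strand: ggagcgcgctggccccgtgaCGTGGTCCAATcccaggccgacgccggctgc
HYOU1, ERSE-II, chr11:119057254-119057304, minus strand: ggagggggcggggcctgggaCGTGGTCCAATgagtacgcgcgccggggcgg
HERPUD1, ERSE-II, chr16:56932005-56932055, plus strand: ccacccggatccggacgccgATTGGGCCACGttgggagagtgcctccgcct
SDF2L1, ERSE-II, chr22:21642094-21642144, plus strand: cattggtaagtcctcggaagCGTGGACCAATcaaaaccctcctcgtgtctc

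CARE, the half-site pair bound by ATF4 with a C/EBP partner, is shown for the 5 members in which it lay before the start. SLC3A2 and SLC7A1 held it after the start, where no sequence is printed.
ASNS, chr7:97872448-97872496, minus strand: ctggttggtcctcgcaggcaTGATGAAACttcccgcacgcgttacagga
ATF3, chr1:212565196-212565244, plus strand: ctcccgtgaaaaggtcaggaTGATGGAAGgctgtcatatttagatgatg
CHAC1, chr15:40953241-40953289, plus strand: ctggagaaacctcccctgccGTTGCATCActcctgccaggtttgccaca
HERPUD1, chr16:56931945-56931993, plus strand: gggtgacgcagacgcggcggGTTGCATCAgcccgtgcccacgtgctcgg
PPP1R15B, chr1:204412016-204412064, minus strand: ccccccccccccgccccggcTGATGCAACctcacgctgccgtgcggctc

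The deposited estimated counts summed to between 15349382 and 16332589 per library. NXN stood at 181, 138 and 143 CPM (counts scaled to library size) in shControl cells on days 7, 9 and 11 and at 42.7, 47.5 and 39.5 CPM in shNXN cells. The groups did not overlap, and the log2 fold change was -1.83 (SE, a standard error derived from the test, 0.16, and edgeR adjusted p = 0.0378). Leaving out 1 library in turn gave NXN log2 fold changes from -1.90 to -1.67 with edgeR's adjusted p running from 0.00131 to 0.225. All 10 hepatocyte and liver cancer markers were detected, with a summed level of 14153 to 25343 CPM in shControl and 8898 to 16551 CPM in shNXN libraries. ALB was at 1420.3 and 683 CPM in shNXN cells on days 7 and 9, below the 6955 to 13655 CPM of shControl cells, and at 7249.6 CPM on day 11. Of the defining markers of leukocytes, CD3E was at 0 in every library and PTPRC reached at most 0.185 CPM, while LYZ and CD68 were expressed and the summed list was 171 to 219.7 CPM in shControl and 237 to 369.9 CPM in shNXN libraries. The 4 fibroblast markers summed to 4.12 to 7.12 CPM in shControl and 6.62 to 8.70 CPM in shNXN libraries, and the 2 endothelial markers in the files to at most 0.0613 CPM. The part of these markers in the results below was not tested. In bulk RNA, fewer cells of a kind and less RNA per cell cannot be told apart.

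To ask whether the stress response genes differ after NXN knockdown, the 3 shNXN libraries were compared with the 3 shControl libraries over all tested features. No member was called higher and 1 was called lower by edgeR (quasi-likelihood test, adjusted p under 0.05). Over all tested features 0.185% were called higher and 3.21% lower, so that 1 of 49 members is near the background. At an unadjusted p under 0.05 from edgeR there were 12 members, against 32.9% of all tested features. Because libraries of one day deviated together from their group means, the comparison was also made with the replicate block, in which the day is a term of the model. With the block, edgeR called 9 members higher (background 6.28%) and 5 lower (background 17%). The 9 were ATF4, DDIT3, PHGDH, SHMT2, PCK2, CALR, HYOU1, PDIA4 and P4HB, and the 5 were PPP1R15B, CANX, DNAJB9, ERO1A and SEL1L. None of these 14 kept the call when the GC correction described below was added to the block. DESeq2 without the block called 2 higher, CEBPB and HYOU1 (background 6.74%), and 7 lower, ASNS, CANX, DNAJB9, EIF2AK3, ERO1B, HSP90B1 and SEL1L (background 16.8%). DESeq2 and the blocked fit of edgeR had 4 members in common. Without the libraries of day 11, in a comparison chosen after seeing the data, edgeR called 7 higher (background 7.99%) and 9 lower (background 23.8%), with 9 of these 16 among the 14 of the blocked fit. Without only the shNXN library of day 11, edgeR called 4 members higher (background 4.4%) and 6 lower (background 21.4%). Calls given by role below are those of edgeR over all 6 libraries unless another test is named.

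Taken by size alone, 30 members had a log2 fold change above 0 and 19 below. Their median was 0.25, against 0.03 over all tested features. Within days 7, 9 and 11 the members had median log2 differences of 0.04, 0.23 and 0.17, against 0.00, -0.01 and 0.07 over all tested features. In 7 members every shNXN library lay above every shControl library (background 19%), and in 7 every shNXN library lay below (background 21.5%). On each of the 3 days, 24 members were above their control (background 35.8%) and 12 below it (background 32.6%), and the other 13 changed sign between days. The heatmap of the members by day shows these differences by role.

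**Figure D1:**
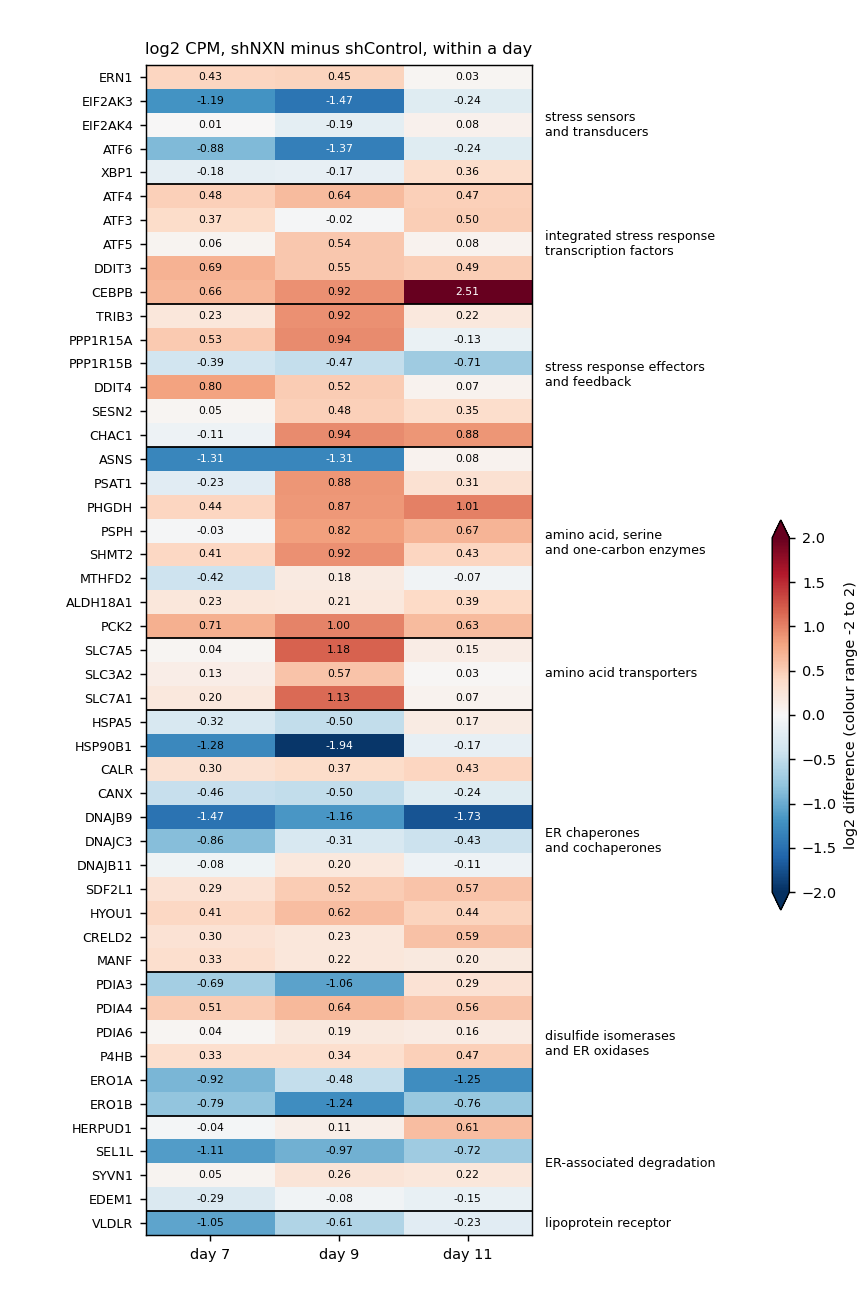
Difference in log2 CPM between the shNXN and the shControl library of the same day, for the 49 members grouped by role. Each cell holds the value from 1 library per group. The transcription factors and amino acid transporters are mostly above 0, while the chaperones and oxidases run in both directions, from HSP90B1 at -1.94 to PDIA4 at 0.64, both on day 9. The largest value is CEBPB on day 11, at 2.51, beyond the colour range.

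Among the 5 sensors and transducers, edgeR without GC correction called none, with the block or without it. DESeq2 called EIF2AK3 lower, and limma on log2(FPKM + 1) with the block called XBP1 higher. With the block and the GC correction described below together, edgeR also called XBP1 higher, at 0.77 (adjusted p = 0.0427). ERN1, the kinase and RNase that splices XBP1, was at 52.6, 41.3 and 68.9 CPM in shControl cells on days 7, 9 and 11 and at 71.0, 56.3 and 70.6 CPM in shNXN cells. The groups overlapped, and the log2 fold change was 0.28 (SE 0.22, edgeR adjusted p = 0.381). EIF2AK3, the eIF2α kinase PERK, was at 65.6, 59.1 and 58.2 CPM in shControl and at 28.7, 21.3 and 49.4 CPM in shNXN libraries. Every knockdown library was below every control library, most on days 7 and 9, and the log2 fold change was -0.88 (SE 0.30, edgeR adjusted p = 0.105, or 0.0523 with the replicate block). ATF6, the membrane-bound factor released by cleavage, was at 55.6, 70.4 and 71.6 CPM against 30.2, 27.3 and 60.8 CPM. Its day 11 knockdown library lay within the range of the controls, and the log2 fold change was -0.74 (SE 0.32, edgeR adjusted p = 0.155, or 0.057 with the block). In edgeR on days 7 and 9 only, a subset chosen after seeing the data, the log2 fold changes of EIF2AK3 and ATF6 were -1.32 and -1.13 and their adjusted p values 0.00211 and 0.00292. After the GC correction described below, over all days, they were -0.57 and -0.035 (edgeR adjusted p = 0.223 and 0.956).

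XBP1, whose spliced mRNA encodes the factor of the IRE1 arm, was at 331, 301 and 168 CPM in shControl cells and at 292, 267 and 215 CPM in shNXN cells. By counts its log2 fold change was -0.05 (SE 0.26, edgeR adjusted p = 0.914), with the knockdown library lower on days 7 and 9 and higher on day 11. By FPKM, which is scaled to transcript length, XBP1 was at 239.7, 209 and 114 in shControl and at 445, 405 and 186 in shNXN libraries, a log2(FPKM + 1) difference of 0.85 (limma adjusted p = 0.186, or 0.0368 with the replicate block). The deposited tables thus placed XBP1 differently. EIF2AK4, the amino acid sensor GCN2, was between 34.7 and 44.7 CPM in all 6 libraries, with a log2 fold change of -0.04.

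The 5 transcription factors of the integrated stress response all had log2 fold changes above 0, and 2 of them were called higher with the replicate block. Their median GC content was 56.7%. After the GC correction described below, ATF5 was at -0.17, ATF4 at 0.19, ATF3 and DDIT3 at 0.47 and CEBPB at 0.81, none called by edgeR. ATF4, the central factor of the arm, was at 359.7, 341 and 215 CPM in shControl cells and at 502, 531 and 298 CPM in shNXN cells. It was higher than its control on each day, although the day 11 knockdown library was below the control libraries of days 7 and 9. The log2 fold change was 0.54 (SE 0.28, edgeR adjusted p = 0.212), and with the block it was 0.53 (SE 0.10, adjusted p = 0.0255). DDIT3, which encodes the factor CHOP, was at 19.3, 14.3 and 13.9 CPM against 31.2, 21.0 and 19.5 CPM. All knockdown libraries were above all control libraries, with a log2 fold change of 0.59 (SE 0.25, edgeR adjusted p = 0.153, or 0.0457 with the block).

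CEBPB, a C/EBP partner of ATF4, was at 55.3, 53.5 and 14.7 CPM in shControl and at 87.3, 101 and 83.7 CPM in shNXN libraries. The groups did not overlap, and the control of day 11 was the lowest by far. The log2 fold change was 1.14 (SE 0.45, edgeR adjusted p = 0.134, or 0.0579 with the block). Without both day 11 libraries, a subset chosen after seeing the data, it was 0.79 (edgeR adjusted p = 0.00629, background 7.99% higher). ATF3, an early stress-induced factor, was at 121, 19.7 and 15.1 CPM against 156, 19.4 and 21.3 CPM, so that day 7 stood apart in both groups. Its log2 fold change was 0.34 with an SE of 1.05. ATF5, a further eIF2α-dependent factor, had a log2 fold change of 0.20 (SE 0.19).

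Of the 6 effectors and feedback genes, 1 was called lower with the block. PPP1R15B, the constitutive subunit of the eIF2α phosphatase, was at 115, 73.6 and 102 CPM in shControl cells and at 87.7, 53.0 and 62.3 CPM in shNXN cells. It was below its control on each day (log2 fold change -0.51, SE 0.24, edgeR adjusted p = 0.186, or 0.0372 with the replicate block). PPP1R15A, the inducible subunit GADD34, was at 215, 59.9 and 123 CPM against 309, 115 and 113 CPM. The groups overlapped, the difference changed sign on day 11, and the log2 fold change was 0.43 (SE 0.55). The pseudokinase gene TRIB3, the mTORC1 regulators DDIT4 and SESN2 and the glutathione-degrading enzyme gene CHAC1 had log2 fold changes from 0.29 to 0.52, with adjusted p values from edgeR from 0.228 to 0.484 and none called with the block.

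The 8 enzymes of amino acid, serine and one-carbon metabolism included 3 that were called higher with the block. PHGDH, the entry enzyme of serine synthesis, was at 128, 169 and 33.0 CPM in shControl cells and at 174, 309 and 66.6 CPM in shNXN cells. Its level moved more between days than between groups, and the knockdown library was higher on each day. Its fold change on the log2 scale was 0.73 (SE 0.68, edgeR adjusted p = 0.463) and 0.77 with the block (SE 0.14, adjusted p = 0.027). SHMT2, the mitochondrial serine hydroxymethyltransferase, was at 245, 250.2 and 168 CPM against 326, 474 and 226 CPM. It was higher in knockdown cells on each day, with a log2 fold change of 0.63 (SE 0.29, edgeR adjusted p = 0.173, or 0.0396 with the block). PCK2, the mitochondrial phosphoenolpyruvate carboxykinase, was at 52.6, 72.4 and 32.8 CPM against 86.2, 144 and 50.7 CPM. Here too the order within each day was the same, and the log2 fold change was 0.83 (SE 0.42, edgeR adjusted p = 0.206, or 0.0214 with the block).

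ASNS, asparagine synthetase and a textbook ATF4 target, went the other way from these enzymes. It was at 86.2, 116 and 51.2 CPM in shControl cells and at 34.8, 46.8 and 54.0 CPM in shNXN cells. The knockdown library was lower on days 7 and 9 and level with its control on day 11. The log2 fold change was -0.90 (SE 0.31, edgeR adjusted p = 0.108, or 0.0918 with the block). On days 7 and 9 only, a subset chosen after seeing the data that leaves out the level day, it was -1.31 (edgeR adjusted p = 0.00345, background 23.8% lower). The serine synthesis genes PSAT1 and PSPH had log2 fold changes of 0.32 and 0.45, ALDH18A1 of proline synthesis 0.27 and MTHFD2 of mitochondrial folate metabolism -0.13, none called with the block or without it by edgeR.

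For the 3 amino acid transporter genes the knockdown library was higher on each day. Log2 fold changes were 0.49 for SLC7A5 and 0.24 for SLC3A2, the light and heavy chains of the LAT1 exchanger, and 0.47 for the arginine transporter SLC7A1. The SEs were 0.27, 0.14 and 0.21. The day 9 differences of SLC7A5 and SLC7A1, 1.18 and 1.13 on the log2 scale, were the largest among these genes, against at most 0.20 on days 7 and 11. None of the 3 was called, with adjusted p values from edgeR from 0.17 to 0.262, and from 0.168 to 0.226 with the block.

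The 11 ER chaperones and cochaperones divided, with 2 called higher and 2 called lower with the replicate block. CALR, the lectin chaperone calreticulin, was at 1266, 1197 and 843 CPM in shControl cells and at 1559, 1546 and 1138 CPM in shNXN cells. It was higher on each day (log2 fold change 0.36, SE 0.20, edgeR adjusted p = 0.244, or 0.0436 with the block). HYOU1, which encodes the nucleotide exchange factor GRP170, was at 282, 259 and 231 CPM against 375, 399 and 313 CPM. All its knockdown libraries lay above all its controls, with a log2 fold change of 0.49 (SE 0.15, edgeR adjusted p = 0.0813, or 0.0308 with the block).

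CANX, the membrane-bound counterpart of calreticulin, lay opposite to CALR by counts. It was at 930.1, 955 and 816 CPM in shControl cells and at 675, 676 and 691 CPM in shNXN cells. There was no overlap, and the log2 fold change was -0.40 (SE 0.12, edgeR adjusted p = 0.0785, or 0.0457 with the block). With the GC correction CANX turned to 0.37, or 0.35 with the block (edgeR adjusted p = 0.395 and 0.14), on the same side of 0 as CALR, and by FPKM it was at -0.14. DNAJB9, the BiP cochaperone ERdj4 that also restrains IRE1, was at 27.6, 12.8 and 22.2 CPM against 9.92, 5.70 and 6.64 CPM. It had the lowest log2 fold change of all members by counts, -1.49 (SE 0.35, edgeR adjusted p = 0.0604, or 0.0156 with the block). By FPKM the sign was opposite: DNAJB9 was at 17.7, 5.58 and 13 in shControl and at 29.2, 12.9 and 10.6 in shNXN libraries, a log2(FPKM + 1) difference of 0.50.

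HSPA5, the chaperone BiP and the usual marker of ER stress, was at 735, 742 and 670.2 CPM in shControl cells and at 588, 526 and 754 CPM in shNXN cells. The groups overlapped, and the day 11 knockdown library was the highest of the 6. By log2 fold change it was at -0.20 (SE 0.16, edgeR adjusted p = 0.395, or 0.304 with the block). On days 7 and 9 only, a subset chosen after seeing the data, it was -0.41 (edgeR adjusted p = 0.0402, background 23.8% lower). After GC correction over all days it was -0.03. HSP90B1, whose promoter carries 2 ERSE matches, was at 856, 881 and 729 CPM against 352, 229.8 and 649 CPM. Every knockdown library was below every control, with log2 differences of -1.28, -1.94 and -0.17 by day and a log2 fold change of -1.003 (SE 0.35, edgeR adjusted p = 0.108, or 0.0636 with the block). After GC correction HSP90B1 was at -0.31, or -0.32 with the block (edgeR adjusted p = 0.531 and 0.454). The remaining cochaperones lay between -0.55 for DNAJC3, the PERK inhibitor P58IPK, and 0.45 for SDF2L1, an ERdj partner, with DNAJB11 at -0.01, MANF at 0.25 and CRELD2 at 0.34. None of these 5 was called by edgeR without GC correction, with the block or without it. With the block and GC correction together DNAJB11 was called higher, at 1.21 (edgeR adjusted p = 0.0465).

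Of the 6 disulfide isomerases and ER oxidases, 2 were called higher and 1 lower with the block. PDIA4, the isomerase ERp72, was at 382, 352 and 253 CPM in shControl cells and at 543, 549.6 and 373 CPM in shNXN cells. It was higher on each day by a like amount (0.51, 0.64 and 0.56 on the log2 scale), with a log2 fold change of 0.57 (SE 0.22, edgeR adjusted p = 0.126) and with the block the same 0.57 (SE 0.09, adjusted p = 0.0216). P4HB, the isomerase PDI, was at 1819.5, 1784 and 1344 CPM against 2291, 2251 and 1862 CPM. The groups did not overlap, with a log2 fold change of 0.37 (SE 0.16, edgeR adjusted p = 0.159, or 0.0421 with the block). ERO1A, the oxidase that recharges PDI, was at 211, 124 and 352 CPM against 112, 88.8 and 148 CPM. It was lower on each day, with a log2 fold change of -0.98 (SE 0.38, edgeR adjusted p = 0.129, or 0.0277 with the block). By FPKM the ERO1A difference was -0.01. Its paralog ERO1B was low throughout, at 3.44 to 4.26 CPM in shControl and 1.65 to 2.43 CPM in shNXN libraries (edgeR adjusted p = 0.0814, or 0.0508 with the block). PDIA3, the isomerase ERp57 that works with calreticulin and calnexin, was at -0.46 on the log2 scale and PDIA6, which attenuates IRE1 signalling, at 0.13, and edgeR called neither.

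In ER-associated degradation, SEL1L was the only member edgeR called in the comparison without the block. SEL1L, the adaptor of the HRD1 ubiquitin ligase, was at 129, 118 and 126 CPM in shControl cells and at 59.4, 60.2 and 76.5 CPM in shNXN cells. The groups were well apart, with a log2 fold change of -0.92 (SE 0.15, edgeR adjusted p = 0.0452, or 0.0158 with the block). The call was lost when any 1 library other than that of shNXN on day 11 was left out, with edgeR's adjusted p reaching 0.225. In the FPKM table SEL1L stood the other way, at 21.3, 30.6 and 21.5 in shControl and at 42.9, 45.8 and 30.4 in shNXN libraries, a log2(FPKM + 1) difference of 0.67 (limma adjusted p = 0.106). SYVN1, the HRD1 ligase itself, was at 0.17 on the log2 scale by counts, the ER membrane protein gene HERPUD1 at 0.19 and the mannose-trimming factor gene EDEM1 at -0.17, none of them called.

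VLDLR, a lipoprotein receptor gene that ATF4 signalling is known to raise in hepatocytes, was at 12.4, 12.9 and 12.6 CPM in shControl and at 5.96, 8.46 and 10.7 CPM in shNXN libraries. All knockdown libraries were lower, least so on day 11. Its log2 fold change was -0.59 (SE 0.26, edgeR adjusted p = 0.158, or 0.086 with the block), and the gene was not called.

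**Figure D2:**
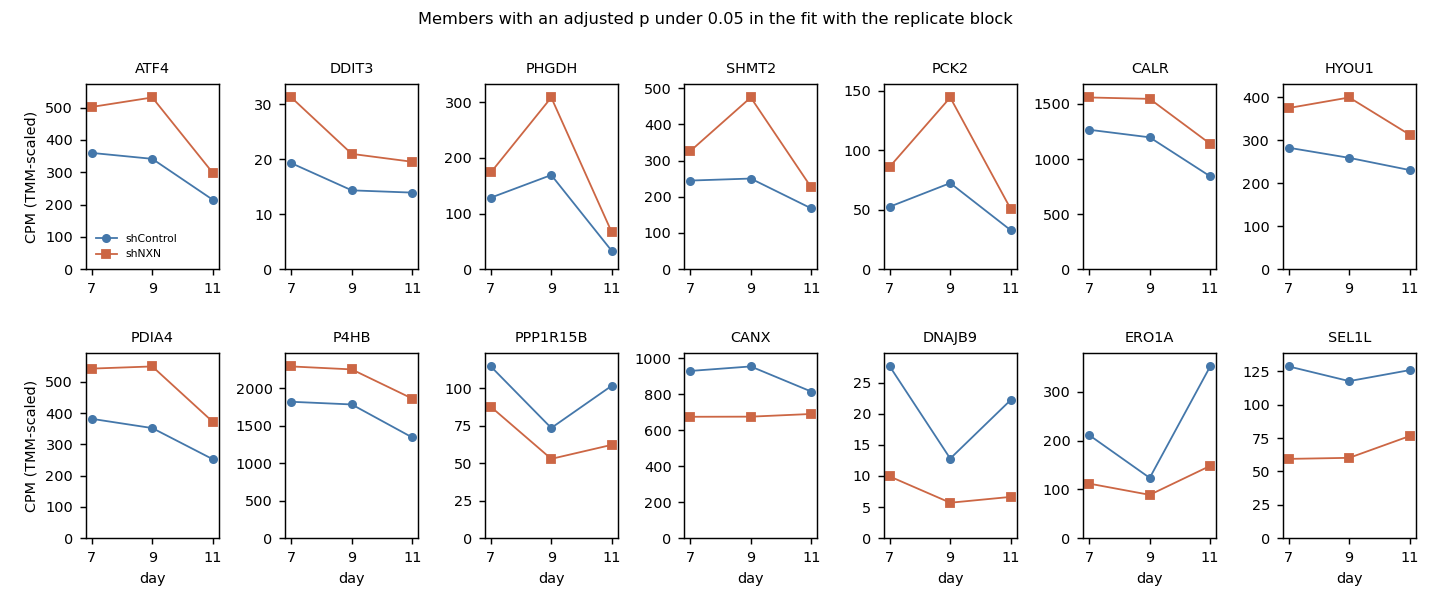
Level in each library, in CPM scaled by TMM from an axis starting at 0, of the 14 members with an adjusted p under 0.05 from edgeR with the replicate block, with shControl as circles and shNXN as squares, joined over days 7, 9 and 11. The 9 members from ATF4 to P4HB have the shNXN library above its control on every day, and the 5 from PPP1R15B to SEL1L below it; for PHGDH and PCK2 both groups peak on day 9.

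The direction of a member's difference went with the GC content of its transcript, as it did over all tested features. The rank correlation (Spearman) of log2 fold change with GC content was 0.80 in the members. Over all tested features with known GC content it was 0.79, so the trend is not particular to the members. GC content was that of the longest GENCODE 29 transcript, and the genes compared were measured in the same 6 libraries and are not independent replicates. All 23 members with a GC content of 50% or more had a log2 fold change above 0, with a median of 0.45. Of the 10 members between 45% and 50%, 6 were above 0, with a median of 0.16. Among the 16 members under 45% only 1, PSAT1, was above 0, and the median was -0.57. The 9 members called higher with the block had 49.7% to 61.6% GC and the 5 called lower had 38.7% to 43.4%.

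With the GC trend of each library removed as an offset, a step that takes away any group difference following GC content whatever its origin, the medians of those GC classes became 0.07, 0.19 and 0.13. The log2 fold change of 15 members changed sign. No member was called by edgeR after this correction (background 0.00711% higher and 0.0284% lower). Of the 49 members, 7 had an unadjusted p under 0.05 from edgeR, against 2419 of all 14071 tested features. With the correction and the block together, edgeR called 2 members higher (background 0.597%) and none lower (background 0.398%). They were XBP1, at 0.77 (adjusted p = 0.0427), and DNAJB11, at 1.21 (adjusted p = 0.0465), neither of which was called without the correction. Of the 14 members called with the block alone, 0 kept the call. ATF4 was then at 0.20 (adjusted p = 0.297 in edgeR with the block), PCK2 at 0.40 (0.152), PHGDH at 0.52 (0.121), DNAJB9 at -0.57 (0.262) and SEL1L at 0.09 (0.696). CALR, P4HB and PPP1R15B were at 0.07, 0.03 and -0.02, and DDIT3, SHMT2, HYOU1, PDIA4, CANX and ERO1A between 0.17 and 0.45. ASNS, EIF2AK3 and CEBPB stayed among the members farthest from 0 by size, at -0.77, -0.60 and 0.91 (adjusted p = 0.167, 0.153 and 0.167 from edgeR with the block and correction). PSAT1, at 0.98, and MTHFD2, at 0.67, were farther from 0 than EIF2AK3 in that fit (edgeR adjusted p = 0.1159 and 0.1265). Whether the GC trend arose in the cells or in library preparation was not tested.

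**Figure D3:**
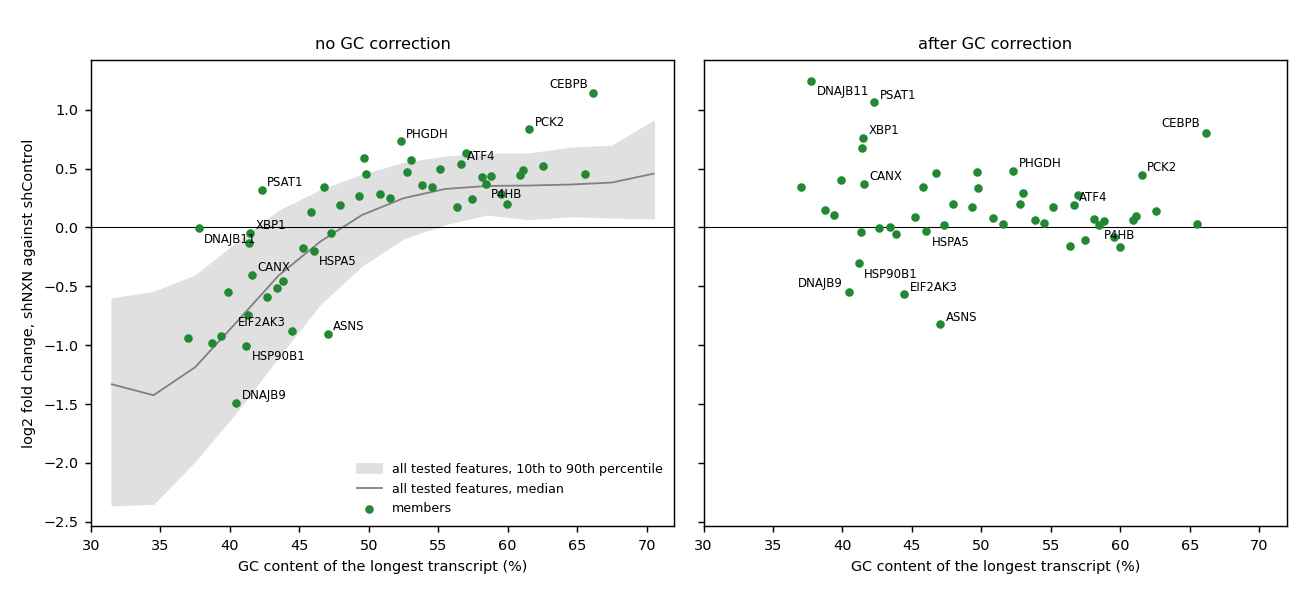
Log2 fold change of shNXN against shControl (edgeR, no block) against the GC content of the longest transcript in percent, before (left) and after (right) removal of each library's GC trend, with members as points. In the left panel the grey line and band are the median and the 10th to 90th percentiles of all tested features, and the members follow them from below 0 under 45% GC to above 0 over 50%. After correction the members scatter about 0, with DNAJB11, at 1.24, the farthest.

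The FPKM table gave a different direction from the counts for 7 members: XBP1, MTHFD2, DNAJB9, PDIA3, ERO1B, SEL1L and EDEM1. All 7 were below 0 by counts and above 0 by FPKM. Both tables were made by the authors from the same libraries, and the ratio of a count to an FPKM value implies the transcript length that was used. For SEL1L the implied length was 5222 bases in shControl and 1727 bases in shNXN libraries, and for DNAJB9 it was 1849 and 467 bases. In 7 members the implied length differed between groups by more than 0.5 on the log2 scale, as it did in 13.4% of all tested features. For ATF4, CALR, HSPA5 and HSP90B1 it differed by at most 0.03 in size. Whether the implied lengths reflect transcript isoforms in the cells or the way reads were shared among transcripts was not tested. In limma on log2(FPKM + 1) no member was called (background 0.142% higher and 1.9% lower). With the replicate block, an alternative chosen after seeing the data, limma called 4 members higher (background 1.51%) and none lower (background 5%). The 4 were PDIA4, PHGDH, PSPH and XBP1.

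**Figure D4:**
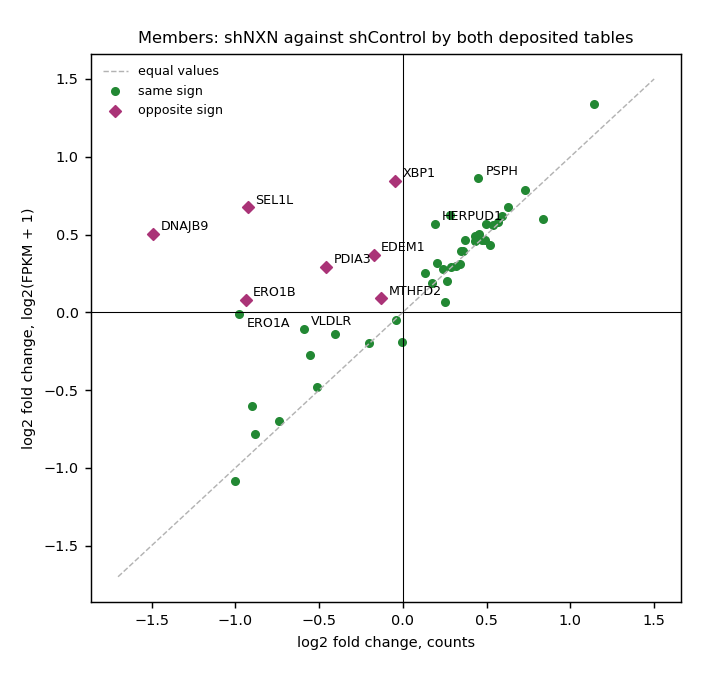
Log2 fold change of shNXN against shControl from the estimated counts (edgeR, horizontal) and from log2(FPKM + 1) (limma, vertical) for the 49 members, with the dashed line marking equal values. Diamonds are the 7 members of opposite sign, all in the upper left, with DNAJB9 (-1.49 and 0.50) and SEL1L (-0.92 and 0.67) farthest from the line.

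Per length, the folding machinery stood at the top of the list. In shControl cells P4HB was at 731 ± 103 and CALR at 678 ± 128 FPKM (SD, n = 3), ranges that overlapped. HSP90B1, CANX, PDIA3 and ATF4 followed in these cells, at 400.9 ± 80.6, 362 ± 167, 316 ± 93.0 and 259.6 ± 62.4 FPKM (SD, n = 3), with neighbours in this order within each other's spread. In shNXN cells HSP90B1 was at 196 ± 80.3 FPKM (SD, n = 3). Averaged over all 6 libraries, the sensors were far lower, at 15.9 FPKM for EIF2AK3, 12.5 for ERN1, 7.83 for EIF2AK4 and 7.26 for ATF6, and VLDLR (4.24) and ERO1B (1.89) were the lowest.

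The course over days was tested with both groups as replicates of a day, which assumes that the groups share one course. No member was called, and no feature at all (background 0%), by edgeR at an adjusted p under 0.05, but 21 members had an unadjusted p under 0.05 (21.4% of all tested features). The smallest adjusted p of all tested features was that of ATF3, 0.0745, with 121 and 156 CPM on day 7 and 15.1 to 21.3 CPM on the later days. PHGDH followed (edgeR adjusted p = 0.0867), highest on day 9 and lowest on day 11 in both groups. PCK2 (edgeR adjusted p = 0.118) had the same order of days as PHGDH. ATF4 and PPP1R15A had adjusted p values from edgeR of 0.13 and 0.138, with ATF4 lowest on day 11 in both groups and PPP1R15A highest on day 7 in both. DDIT4 (edgeR adjusted p = 0.139) was lowest on day 7 and highest on day 9. Calls in this test depended on single libraries: 12 members were called without the shControl library of day 11 (background 11.1%), 9 without the shNXN library of day 11 (background 3.8%), and 2, ATF3 and PHGDH, without the shControl library of day 9 (background 0.175%). Over all libraries, 2 were called after GC correction (background 0.178%) and 4 with no filter (background 1.56%).

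**Figure D5:**
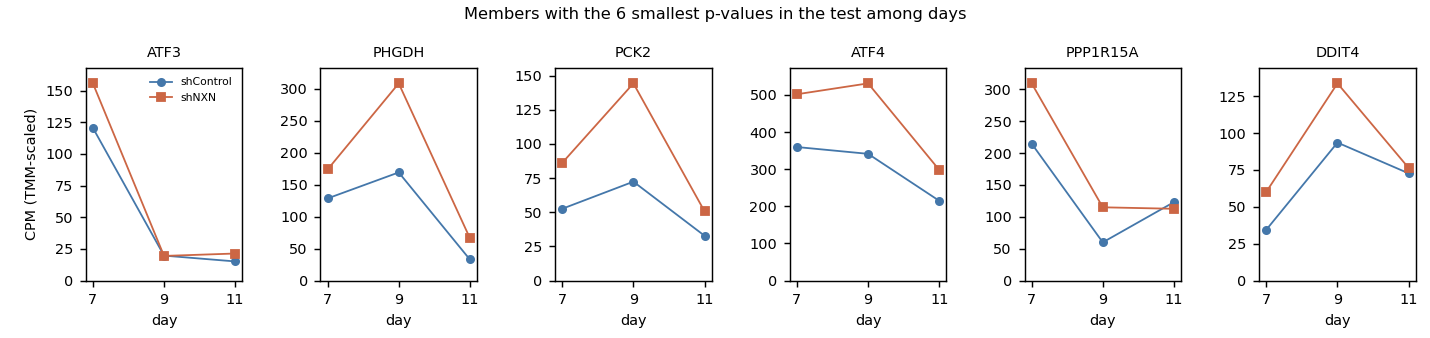
CPM scaled by TMM, from an axis starting at 0, by day in shControl (circles) and shNXN (squares) cells for the 6 members with the smallest p in the test among days. ATF3 lies at 121 and 156 CPM on day 7 and between 15.1 and 21.3 CPM on days 9 and 11, and PHGDH, PCK2 and DDIT4 peak on day 9 in both groups.

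Members that share the ERSE or the CARE did not all share a direction. Of the 8 ERSE carriers, CALR (0.36), CRELD2 (0.34) and PDIA6 (0.13) had log2 fold changes above 0, and XBP1 (-0.05), HSPA5 (-0.20), CANX (-0.40), ERO1B (-0.94) and HSP90B1 (-1.003) below 0. The 3 ERSE-II carriers HYOU1 (0.49), SDF2L1 (0.45) and HERPUD1 (0.19) were above 0. Among the 7 CARE carriers, ASNS (-0.90) and PPP1R15B (-0.51) were below 0 and ATF3, CHAC1, HERPUD1, SLC3A2 and SLC7A1 between 0.19 and 0.52. After GC correction without the block, CANX, XBP1 and ERO1B among the ERSE carriers, SLC3A2 and PPP1R15B among the CARE carriers changed sign.

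A further 96 genes of the same pathways, listed by role, were read beside the members, and 93 of them were tested. Without the block edgeR called 0 of these higher (background 0.185%) and 6 lower (background 3.21%). With the block it called 12 higher (background 6.28%) and 20 lower (background 17%). The same backgrounds apply to the edgeR calls in each list below. Among the other ATF4 pathway genes, 2 of 16 were called lower without the block. SLC38A2, the neutral amino acid transporter SNAT2, was at 502, 232 and 385 CPM in shControl and at 131, 90.3 and 119.9 CPM in shNXN libraries (log2 fold change -1.71, SE 0.29, edgeR adjusted p = 0.0452). Its FPKM difference was -0.03. SLC7A11, the cystine transporter xCT, was at 54.5, 26.9 and 49.4 CPM against 11.2, 10.6 and 16 CPM (log2 fold change -1.79, SE 0.32, edgeR adjusted p = 0.0452). By FPKM it was at -1.23 (limma adjusted p = 0.0531). SLC38A2 and SLC7A11 thus stood opposite to the member transporter genes by counts, with GC contents of 38.1% and 35.4%. After GC correction the 2 genes were at -0.50 and -0.32 (edgeR adjusted p = 0.411 and 0.486). The member transporter genes SLC7A5, SLC3A2 and SLC7A1 were then at 0.09, -0.11 and 0.20. SLC38A2 and SLC7A11 were named for their small p, and the list as a whole lay the other way. Of its 16 tested genes 11 had a log2 fold change above 0 and 5 below, with a median of 0.40.

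In the ER translocon list, 2 of 14 genes were called lower without the block (background 3.21%). SEC63, a translocon partner of BiP, fell to 79.2 ± 21.7 CPM in shNXN from 187 ± 16.6 CPM in shControl libraries (SD, n = 3), or by log2 fold change -1.24 (SE 0.21, edgeR adjusted p = 0.0452). It was lower by FPKM too, at -1.61 (limma adjusted p = 0.0465). After GC correction of the counts SEC63 was at -0.26 (edgeR adjusted p = 0.4935). SSR1, a translocon-associated subunit, fell to 98.6 ± 41.4 CPM from 289 ± 42.0 CPM (SD, n = 3), with a log2 fold change of -1.55 (SE 0.29, edgeR adjusted p = 0.0473). By FPKM SSR1 was at -0.86 (limma adjusted p = 0.0576), and after GC correction of the counts at -0.74 (edgeR adjusted p = 0.08885). Of the 14 other degradation genes 2 were called lower: EDEM3, a mannosidase (-1.43, SE 0.27, edgeR adjusted p = 0.0466), and RNF139, an ER ubiquitin ligase (-1.46, SE 0.28, edgeR adjusted p = 0.0473). RNF139 was also lower by FPKM, at -1.35 (limma adjusted p = 0.0486). With the block, the other ATF4 pathway genes had 5 called higher and 3 lower, and the translocon genes 5 lower. The degradation genes had 1 higher and 5 lower (background for each list 6.28% higher and 17% lower). After GC correction edgeR called none of the 93 without the block (background 0.00711% higher and 0.0284% lower). With the block edgeR called none either (background 0.597% higher and 0.398% lower).

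In the other lists edgeR made calls only with the replicate block (background 6.28% higher and 17% lower). DESeq2 without the block called 9 of their genes lower (background 16.8%) and 0 higher (background 6.74%). The calls below are those of edgeR with the block. Of 12 aminoacyl-tRNA synthetase genes, 3 were higher and 1 lower, among them AARS1 (0.62, adjusted p = 0.0184 in edgeR with the block), YARS1 (0.47, 0.0382) and NARS1 (-0.47, 0.0341). Of 10 genes for eIF2, eIF2B and the other eIF2 kinases, the 2 called were lower: EIF2AK2, the kinase PKR (-0.78, 0.0292), and EIF2S1, the eIF2α subunit itself (-0.93, 0.0343). Of 19 other ER folding factor genes, 3 were higher and 3 lower. DNAJC10, the disulfide reductase ERdj5, was at 319.9, 273 and 318 CPM in shControl and at 44.2, 47.9 and 142 CPM in shNXN libraries, a log2 fold change of -2.18 with the block (SE 0.35, edgeR adjusted p = 0.0214). HSPA13 (-1.30, 0.0184) was lower and the cyclophilin gene PPIB (0.42, 0.0339) higher. MBTPS2, the site-2 protease that cuts ATF6, was the 1 of 8 transducer and protease genes called, at -0.84 (adjusted p = 0.0183 in edgeR with the block). With the GC correction, with the block or without it, EIF2AK2, EIF2S1, HSPA13 and MBTPS2 changed sign to above 0. AARS1, YARS1 and NARS1 kept their sign.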

How the data were processed

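The 6 RNA libraries of Hep-3B cells were analysed, assigned to group and day from the labels, and 0 columns had no sample. The authors deposited estimated counts per gene, part of them not whole numbers, and FPKM values, which divide fragments by transcript length and sequencing depth, for all features of the count table. The aligner, counter and annotation are not given in the sources used here, and the submitters' processing notes list only mouse genome builds although the features carry human Ensembl identifiers or assembled loci. Estimated counts share reads among transcripts, which leaves paralogs and overlapping genes uncertain. Of 20314 Ensembl identifiers, 19433 had a symbol.

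The rounded counts entered edgeR 4.0.16 under R 4.3.3 with TMM, filterByExpr, the quasi-likelihood test of group, and Benjamini-Hochberg adjustment over all 14071 tested features. The SE given with edgeR values was derived from the test, as the size of the log2 fold change over the square root of the F statistic. The study's methods state no test for these data. CPM are scaled by TMM, and log2 CPM within a day used a prior count of 1. The same-numbered libraries share a day in the labels, and the correlation of their deviations from the group means was 0.281 to 0.433, against -0.352 to 0.141 for different days, so the replicate numbers were taken as pairs. Alternatives were the replicate block, DESeq2 1.42.0, RLE factors, library sizes alone, a filter of 1 count in total, a filter of 10 counts in each library, limma 3.58.1 on log2(FPKM + 1) and log2(FPKM + 0.1), a GC correction (natural spline with 5 degrees of freedom on GC content of the longest GENCODE 29 transcript, as an offset), and each library left out. Differences on the log2(FPKM + 1) scale understate the change of low genes. GC content was known for 90.5% of tested features and all 49 members. Replicates differed by more than sampling noise (chi-square per gene 20.2 to 78.5).

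The members and lists were chosen with earlier results of these data known. Values in every library were given for NXN, for members with an adjusted p under 0.05 in the group test, the blocked test or the test among days, and for ATF4, DDIT3, XBP1, ATF6, ERN1, EIF2AK3, HSPA5, ASNS, PPP1R15A and VLDLR. From each list of other pathway genes at most 3 were named, those with the smallest p among adjusted p under 0.05 in the group test, or with the block where there were none. Members named beyond this (CEBPB, ATF3, HSP90B1, ERO1B and members given by value in their role) were picked with their values in view. The tests were checked on simulated data. The other experiments of the study were not analysed here.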

Additional observations from a re-analysis of the deposited data

Results flagged for a closer look

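For 13 members the difference between the shNXN and the shControl library (log2 CPM) changed sign between days 7, 9 and 11. With 1 library per group and day these changes of sign were not tested, and over all tested features 31.6% changed sign. ASNS was at -1.31 and -1.31 on days 7 and 9 and at 0.076 on day 11. PDIA3 went from -0.69 and -1.06 to 0.29, and HSPA5 from -0.32 and -0.50 to 0.17. XBP1 was at -0.18, -0.17 and 0.36. In these 4 members the knockdown library was lower on days 7 and 9 and higher on day 11. PPP1R15A took the opposite course, at 0.53, 0.94 and -0.13. CHAC1 was at -0.11, 0.94 and 0.88, PSAT1 at -0.23, 0.88 and 0.31, PSPH at -0.029, 0.82 and 0.67 and HERPUD1 at -0.036, 0.11 and 0.61, each below 0 on day 7 only. The values of EIF2AK4 were 0.011, -0.19 and 0.079, those of ATF3 0.37, -0.019 and 0.50, those of MTHFD2 -0.42, 0.18 and -0.074 and those of DNAJB11 -0.080, 0.20 and -0.11. Groups of 3 libraries are too small for the check for outlying samples, which was not made.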

How the results depend on the processing

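Without the replicate block, 1 member was called with TMM, and as many with RLE factors, library size only, no filter or at least 10 counts in every library. The count was 14 with the replicate block, 9 with DESeq2, 0 with the GC correction, 2 with the block and GC correction together, 0 in limma on log2(FPKM + 1) or log2(FPKM + 0.1), and, in alternatives chosen after seeing the data, 16 on days 7 and 9 only and 4 in limma on log2(FPKM + 1) with the block. Leaving out 1 library in turn gave 0 to 10 members. The 10 came without the shNXN library of day 11 (ATF4, ATF6, DNAJB9, EIF2AK3, HSP90B1, HYOU1, PDIA3, PDIA4, SEL1L and SHMT2; 4.4% of all tested features were called higher and 21.4% lower in that fit), and leaving out any other library gave 0. The median log2 fold change of the members, 0.25, was 0.09 with the GC correction, 0.11 with the block and GC correction, 0.37 in limma on log2(FPKM + 1), with the block or without it, 0.39 in limma on log2(FPKM + 0.1), and 0.14 to 0.32 with 1 library left out. The FPKM tables also moved the median of all tested features, to 0.13 and 0.16 with the 2 pseudocounts. In the test among days 0 members were called with TMM, 2 with the GC correction, 4 with no filter and 0 to 12 with 1 library left out. NXN stayed between -1.90 and -1.67 with 1 library left out, and was not called without the shControl library of day 7 or 11 or the shNXN library of day 7 or 9. The block reversed the sign of 2 members near 0, XBP1 (0.0016) and DNAJB11 (0.0053), and of no other gene named. The cause of these changes was not tested.

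Signs changed as follows, each against the fit by counts without block or correction. With the GC correction and then with the block as well, values were 0.020 and 0.022 for EIF2AK4, 0.76 and 0.77 for XBP1, -0.17 and -0.14 for ATF5, -0.078 and -0.069 for SESN2, 0.67 and 0.67 for MTHFD2, -0.11 and -0.10 for SLC3A2, 0.37 and 0.35 for CANX, 0.40 and 0.43 for DNAJC3, 1.24 and 1.21 for DNAJB11, 0.15 and 0.22 for ERO1A, 0.34 and 0.34 for ERO1B, 0.10 and 0.092 for SEL1L, -0.16 and -0.15 for SYVN1, 0.092 and 0.098 for EDEM1, 0.31 and 0.32 for EIF2AK2, 0.13 and 0.12 for EIF2S1, 0.20 and 0.20 for HSPA13 and 0.57 and 0.55 for MBTPS2. PPP1R15B reversed with the GC correction alone (0.0060). In limma on log2(FPKM + 1), where the block leaves the value unchanged, and then on log2(FPKM + 0.1), values were 0.85 and 0.85 for XBP1, 0.091 and 0.093 for MTHFD2, 0.50 and 0.54 for DNAJB9, 0.29 and 0.29 for PDIA3, 0.082 and 0.15 for ERO1B, 0.67 and 0.69 for SEL1L, 0.37 and 0.39 for EDEM1 and 0.18 and 0.18 for NARS1. DNAJB11 was at 0.016 with DESeq2 and with RLE factors, 0.026 with no filter and 0.052 on days 7 and 9 only, and XBP1 at 0.0071 with no filter. With 1 library left out, EIF2AK4 ran from -0.080 to 0.11, XBP1 from -0.23 to 0.18, ATF3 from -1.34 to 1.97, PPP1R15A from -0.22 to 0.997, MTHFD2 from -0.24 to 0.082 and DNAJB11 from -0.12 to 0.17.

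Depth was even, at 15349382 to 16332589 counts per library. ERO1B, at 1.65 to 4.26 CPM, rests on few reads. Without the block the days add to the spread within a group, and with it 2 residual degrees of freedom remain.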
